A study of Mus musculus with 8 samples.

Results

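The genes described here encode the enzymes and transporters that carry pyruvate into mitochondria, turn the tricarboxylic acid (TCA) cycle and refill it. They were chosen by name, as 31 genes whose symbols stand in the deposited table of log2 values, and their counts were found by gene ID among the 45777 genes of the count table. All 31 were found and all 31 passed the filter on low counts, which left 16750 genes. The samples were primary CD8+ T cells, the killer lymphocytes, from C57BL/6 mice. Per the labels' protocols, the cells came out of lymph nodes and spleens, were stimulated through CD3 and CD28 with antibodies and spent 48 hours with a compound. The 4 groups of 2 libraries each were the vehicle DMSO, EnPGC-1, Ctrl PIP, the compound named as a control, and SGC-CBP30, which blocks the bromodomain of the acetyltransferases CBP and p300. All groups shared the strain, the activation and the time. The series text counts all 3 compounds as PIPs, a name for pyrrole-imidazole polyamides, synthetic ligands of the minor groove of DNA, although SGC-CBP30 is known as a bromodomain inhibitor. The labels give no doses, no ages and no statement on whether replicates came from separate mice or cultures, and every p-value here reflects the spread of these libraries alone, which may be technical.

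Pyruvate made by glycolysis enters mitochondria through a carrier of paired Mpc1 and Mpc2 subunits and is converted to acetyl-CoA by the pyruvate dehydrogenase complex, which kinases (Pdk) switch off and phosphatases (Pdp) switch on. Citrate synthase joins acetyl-CoA to oxaloacetate, and the cycle returns to oxaloacetate through isocitrate, 2-oxoglutarate, succinate, fumarate and malate, giving electrons to the respiratory chain. Activated T cells draw citrate, aspartate and other intermediates out of the cycle for growth, and anaplerotic enzymes such as pyruvate carboxylase and glutamate dehydrogenase refill it. PGC-1 coactivators, after which EnPGC-1 is named, act with factors such as NRF1 and the estrogen-related receptors on genes of mitochondria.

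The start regions of 28 of the 31 genes were available from RefSeq (GRCm38.p6), as windows from 250 bases before to 50 bases after each annotated start. Exact matches were counted on both strands for 4 motifs whose letters do not contain one another, and a gene counted once where any of its windows held the motif. The CCAAT box (CCAAT), bound by NF-Y, was in 17 of the 28 genes (60.7%) and in 41.1% of 27025 genes of the same table. The core site of the estrogen-related receptors (AAGGTCA) was in 2 of the 28, Got1 and Ogdh (7.1%), and in 5.38% of all genes. The E-box (CACGTG), bound by MYC, was in 3 of the 28, Ogdh, Pcx and Pdk2 (10.7%), and in 8.09% of all genes. The full NRF1 palindrome, searched under that name, was in 0 of the 28 and in 1.07% of all genes. A match describes letters in a window and not binding. The 250 bases before the start are printed for Got1 and Pdk2, because these had the lowest and the highest fold change between SGC-CBP30 and Ctrl PIP among the genes with a window. They are written 5′ to 3′ on the gene's strand, with matches to the 4 motifs in capitals. The Got1 stretch (chr19:43524606-43524855, minus strand) holds 1 core site of the estrogen-related receptors and 5 CCAAT boxes. The Pdk2 stretch (chr11:95041372-95041621, minus strand) holds 1 E-box and 3 CCAAT boxes. Pdk2 has another annotated start, whose stretch (chr11:95040876-95041125, not printed) holds 0 matches to the 4 motifs.
Got1: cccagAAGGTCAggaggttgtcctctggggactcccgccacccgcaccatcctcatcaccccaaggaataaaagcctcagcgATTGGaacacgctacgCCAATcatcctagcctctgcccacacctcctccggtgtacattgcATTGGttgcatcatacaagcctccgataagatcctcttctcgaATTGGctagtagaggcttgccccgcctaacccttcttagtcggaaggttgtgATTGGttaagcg
Pdk2: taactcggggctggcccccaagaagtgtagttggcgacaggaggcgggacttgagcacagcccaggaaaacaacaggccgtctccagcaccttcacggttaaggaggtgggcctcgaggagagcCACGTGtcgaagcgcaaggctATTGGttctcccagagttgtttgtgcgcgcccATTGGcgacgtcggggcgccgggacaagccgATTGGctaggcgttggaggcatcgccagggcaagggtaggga

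Total counts ran from 38890043 to 55491261 per library, and the libraries of DMSO and of EnPGC-1 stood further apart than those of the other groups. The common coefficient of variation between replicates came to 0.578 (DMSO), 0.546 (EnPGC-1), 0.165 (Ctrl PIP) and 0.154 (SGC-CBP30). The defining CD8 T cell genes Cd8a and Cd3e were at 904 to 1241 CPM, the count scaled by library size, and 328 to 429 CPM. Of genes that define other cells, Cd4 was at 4.54 to 14.1 CPM, and Csf1r, Ncr1 and Alas2 were at 0 in some libraries and at most 0.729 CPM in any. Other markers in the lists were present at low levels, among them Cd68 (up to 8.73 CPM), Itgax (7.11), Lyz2 (6.24), Hbb-bs (6.76) and Klre1 (7.45). Summed levels ran from 9.19 to 21.3 CPM for 7 myeloid markers and from 1.64 to 16.8 CPM for 6 erythroid markers. Foxp3, which marks regulatory T cells, was at 9.46 and 0.198 CPM (DMSO) and 13.8 and 1.62 CPM (EnPGC-1), and at 1.76 to 3.55 CPM in the other 4 libraries, so it differed between replicates of the same groups as the 31 genes did, and its part in that difference was not tested. In bulk samples, fewer cells of a type and less RNA per cell cannot be told apart. Libraries also differed in a trend on transcript length, which is given beside the results below.

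Summed over the 31 genes, the level was 2998 and 4220 CPM in replicates 1 and 2 of DMSO, 2799.9 and 3528 CPM with EnPGC-1, 3784 and 3647 CPM with Ctrl PIP, and 3149 and 3384 CPM with SGC-CBP30. The DMSO libraries enclosed every other library except replicate 1 of EnPGC-1. A principal component on the 31 genes held 78.9% of their variance. It placed the DMSO libraries at -1.47 and 2.74, EnPGC-1 at -1.71 and 0.0974, Ctrl PIP at 1.28 and 0.814, and SGC-CBP30 at -1.28 and -0.478. Replicate 2 of DMSO had the highest level of 19 of the 31 genes, and replicate 1 of EnPGC-1 the lowest level of 15. Between the DMSO replicates, 27 of 31 genes were higher in replicate 2, with a median absolute difference of 0.67 log2 units (0.73 over all genes). The same median was 0.34 in EnPGC-1 (0.56 over all genes), 0.09 in Ctrl PIP (0.20) and 0.17 in SGC-CBP30 (0.20).

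**Figure D1:**
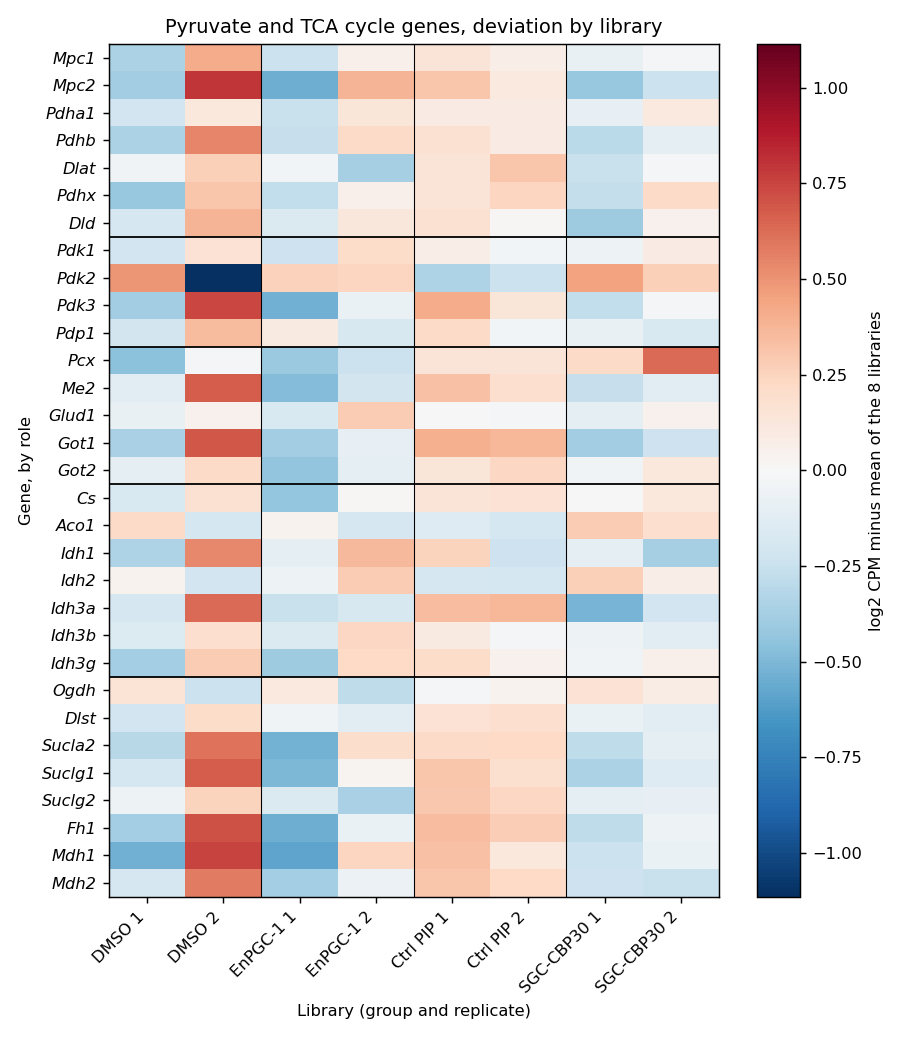
Deviation of each of the 31 genes (rows, in blocks by role) in each of the 8 libraries (columns), as log2 CPM minus the mean over the libraries. Replicate 2 of DMSO is the highest library for 19 genes, and Pdk2 and Aco1 run against most of the others.

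In sign, this shift moved with a trend on transcript length, which also differed between SGC-CBP30 and Ctrl PIP. Whether the trend is technical was not tested. For all genes with a mean log2 CPM above 3, the difference of a library's value from that mean was correlated with transcript length, and the Spearman rho, a description across genes that are not independent, was 0.56 and -0.61 in replicates 1 and 2 of DMSO. It was 0.49 and -0.52 (EnPGC-1), -0.53 and -0.20 (Ctrl PIP) and 0.54 and 0.48 (SGC-CBP30). The median deviation of the 31 genes was -0.21 and 0.31 (DMSO), -0.25 and 0.03 (EnPGC-1), 0.17 and 0.12 (Ctrl PIP) and -0.11 and -0.02 (SGC-CBP30). All 4 libraries with a positive rho had a negative median deviation, and all 4 with a negative rho a positive one. The medians of 0.03 and -0.02 were near 0, and sizes did not always follow rho. Replicate 2 of EnPGC-1 had 0.03 at a rho of -0.52, and replicate 2 of Ctrl PIP 0.12 at -0.20. Fits with offsets for length and GC content are given beside the comparisons for calls they change and for part of the values they move. Values given without them may also move under the offsets.

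**Figure D2:**
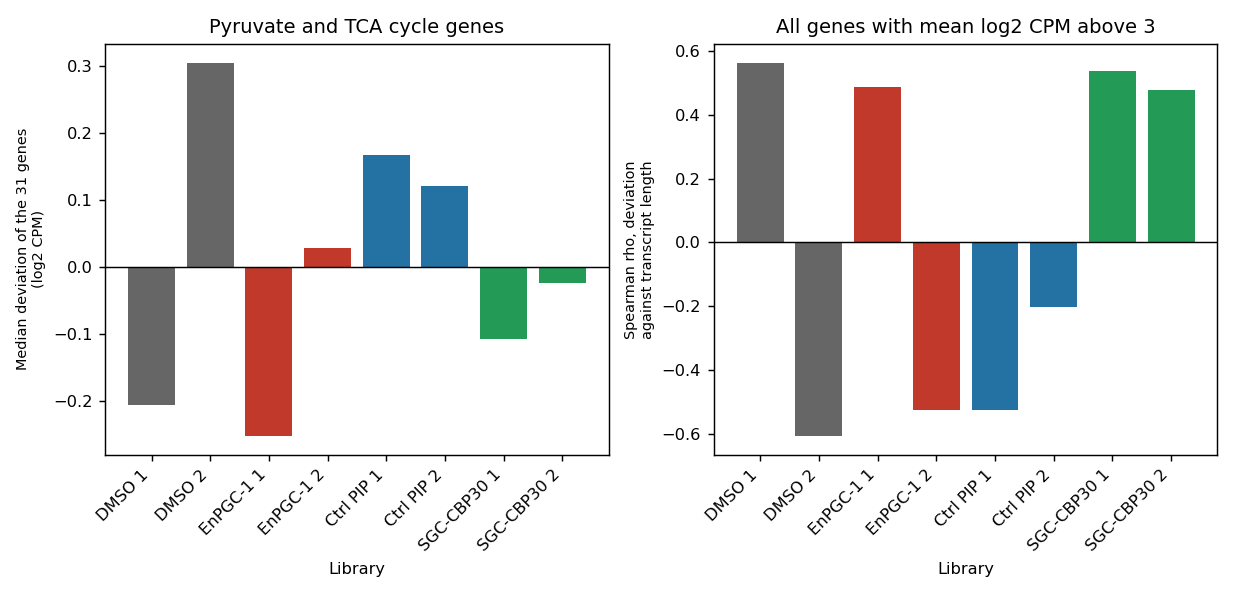
Left, median deviation of the 31 genes from their mean over the 8 libraries (log2 CPM), one bar per library; right, Spearman rho between the deviation of all genes with mean log2 CPM above 3 and their transcript length. The bars have opposite signs in every library, with 0.31 and -0.61 in replicate 2 of DMSO.

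Pyruvate entry comes first in the pathway. The carrier subunit Mpc1 was at 26.1 and 44.5 CPM (DMSO), 28.1 and 34.6 (EnPGC-1), 36.8 and 35.2 (Ctrl PIP) and 31.5 and 32.9 (SGC-CBP30). Its partner Mpc2 was at 18.4 and 42.0 CPM (DMSO), 16.6 and 31.3 (EnPGC-1), 29.9 and 26.0 (Ctrl PIP) and 18.0 and 20.4 (SGC-CBP30). Both carrier genes were highest in replicate 2 of DMSO, and for both the SGC-CBP30 libraries stood below the Ctrl PIP libraries, by a wider gap for Mpc2. Of the E1 subunits of pyruvate dehydrogenase, which decarboxylate pyruvate, Pdha1 was at 154 and 194 CPM (DMSO), 150.5 and 196 (EnPGC-1), 191 and 190.4 (Ctrl PIP) and 167 and 192 (SGC-CBP30). Pdhb, the other E1 subunit, was at 70.6 and 132 CPM (DMSO), 75.8 and 105 (EnPGC-1), 102 and 96.4 (Ctrl PIP) and 73.3 and 84.0 (SGC-CBP30). Pdha1 varied by 1.30-fold from the lowest to the highest library, the narrowest range of the 31 genes, and Pdhb by 1.87-fold.

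The core of the complex is built from Dlat, the E2 acetyltransferase, and Pdhx, which holds E3 to it. Dlat was at 42.8 and 53.1 CPM (DMSO), 43.2 and 34.1 (EnPGC-1), 48.7 and 54.7 (Ctrl PIP) and 37.0 and 43.4 (SGC-CBP30). Pdhx was at 12.5 and 20.7 CPM (DMSO), 13.8 and 17.4 (EnPGC-1), 18.5 and 19.7 (Ctrl PIP) and 13.9 and 19.5 (SGC-CBP30). Dld, the E3 dehydrogenase shared with the 2-oxoglutarate complex, was at 74.3 and 110.4 CPM (DMSO), 75.8 and 92.7 (EnPGC-1), 95.1 and 85.7 (Ctrl PIP) and 64.4 and 87.6 (SGC-CBP30). Dlat was lowest in replicate 2 of EnPGC-1, and all 3 genes of this core were at higher means with Ctrl PIP than with EnPGC-1 or SGC-CBP30. The groups overlapped for Dld in each comparison.

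The regulators of the complex differed from one another. Pdk1, the kinase induced by hypoxia and in activated T cells, was at 299.7 and 390.1 CPM (DMSO), 297 and 401 (EnPGC-1), 366 and 341 (Ctrl PIP) and 334 and 370.1 (SGC-CBP30). Pdk2, a broadly expressed kinase of the complex, was at 26.2 and 8.55 CPM (DMSO), 22.2 and 21.9 (EnPGC-1), 14.6 and 15.7 (Ctrl PIP) and 25.3 and 22.3 (SGC-CBP30). Pdk3, another kinase, was at 39.6 and 86.4 CPM (DMSO), 35.5 and 49.0 (EnPGC-1), 69.0 and 56.7 (Ctrl PIP) and 42.7 and 50.8 (SGC-CBP30). Pdk2 had the widest range of the 31 genes, 3.06-fold, and was lowest in replicate 2 of DMSO, where Pdk3 was highest. Pdp1, the phosphatase that turns the complex back on, was at 6.78 and 9.996 CPM (DMSO), 8.40 and 6.91 (EnPGC-1), 9.08 and 7.67 (Ctrl PIP) and 7.36 and 6.94 (SGC-CBP30). Pdk4, the kinase of fasted tissue, had 0 counts in all 8 libraries.

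Grouped under anaplerosis with the refilling enzymes Pcx and Glud1 were Me2, Got1 and Got2, so the group is not made of refilling enzymes alone. Pcx, pyruvate carboxylase, which makes oxaloacetate from pyruvate, was at 4.95 and 6.70 CPM (DMSO), 5.12 and 5.77 (EnPGC-1), 7.54 and 7.52 (Ctrl PIP) and 7.93 and 10.6 (SGC-CBP30). It was the lowest of the 31 genes per length, and both SGC-CBP30 libraries stood above the other 6. Me2, the mitochondrial malic enzyme, was at 119 and 208 CPM (DMSO), 93.5 and 113 (EnPGC-1), 163 and 149 (Ctrl PIP) and 109 and 119.9 (SGC-CBP30). Both EnPGC-1 libraries stood below all others except replicate 1 of SGC-CBP30, which lay between them. Glud1, glutamate dehydrogenase, which makes 2-oxoglutarate from glutamate, was at 240.1 and 263 CPM (DMSO), 227 and 309.9 (EnPGC-1), 256 and 250.5 (Ctrl PIP) and 237 and 264 (SGC-CBP30). Got1, the cytosolic aspartate aminotransferase, was at 37.3 and 77.7 CPM (DMSO), 36.8 and 44.97 (EnPGC-1), 63.1 and 62.2 (Ctrl PIP) and 36.7 and 41.0 (SGC-CBP30). Got2, its mitochondrial partner, was at 225 and 280.5 CPM (DMSO), 178 and 225 (EnPGC-1), 267 and 284 (Ctrl PIP) and 236 and 263 (SGC-CBP30). For Got1 both Ctrl PIP libraries stood above all EnPGC-1 and SGC-CBP30 libraries, while for Glud1 the Ctrl PIP libraries lay within the range of every other group.

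The first span of the cycle runs from citrate to 2-oxoglutarate. Cs, citrate synthase, was at 241 and 304 CPM (DMSO), 201 and 274 (EnPGC-1), 300.1 and 303 (Ctrl PIP) and 271 and 294 (SGC-CBP30). Aco1, the cytosolic aconitase that also acts as an iron sensor, was at 44.0 and 33.1 CPM (DMSO), 38.9 and 33.3 (EnPGC-1), 34.2 and 33.1 (Ctrl PIP) and 46.1 and 43.2 (SGC-CBP30). Cs was highest in replicate 2 of DMSO, where Aco1 was lowest, and Aco1 was higher in both SGC-CBP30 libraries than in both Ctrl PIP libraries. Idh1, the cytosolic NADP-dependent isocitrate dehydrogenase, was at 5.92 and 10.964 CPM (DMSO), 7.04 and 9.67 (EnPGC-1), 8.96 and 6.44 (Ctrl PIP) and 6.99 and 5.84 (SGC-CBP30). Idh2, its mitochondrial counterpart, was at 99.0 and 83.4 CPM (DMSO), 92.8 and 117 (EnPGC-1), 84.5 and 84.1 (Ctrl PIP) and 116 and 101 (SGC-CBP30). The groups overlapped for Idh1 except that both EnPGC-1 libraries stood above both SGC-CBP30 libraries, and Idh2 was lower in the Ctrl PIP libraries than in all EnPGC-1 and SGC-CBP30 libraries.

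Idh3a, Idh3b and Idh3g form the NAD-dependent isocitrate dehydrogenase of the cycle, Idh3a being the catalytic subunit. Idh3a was at 64.5 and 113 CPM (DMSO), 61.5 and 64.9 (EnPGC-1), 92.8 and 94.7 (Ctrl PIP) and 51.1 and 63.2 (SGC-CBP30). Its highest value in EnPGC-1 or SGC-CBP30, 64.9 CPM, was below both Ctrl PIP libraries and replicate 2 of DMSO and just above replicate 1 of DMSO. Idh3b was at 133 and 168 CPM (DMSO), 133 and 174 (EnPGC-1), 158 and 146 (Ctrl PIP) and 142 and 136 (SGC-CBP30). Idh3g was at 96.3 and 153 CPM (DMSO), 95.2 and 147 (EnPGC-1), 145 and 129.98 (Ctrl PIP) and 122 and 131 (SGC-CBP30). Idh3b and Idh3g did not share the pattern of Idh3a, and both were highest in the second libraries of DMSO and EnPGC-1.

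**Figure D3:**
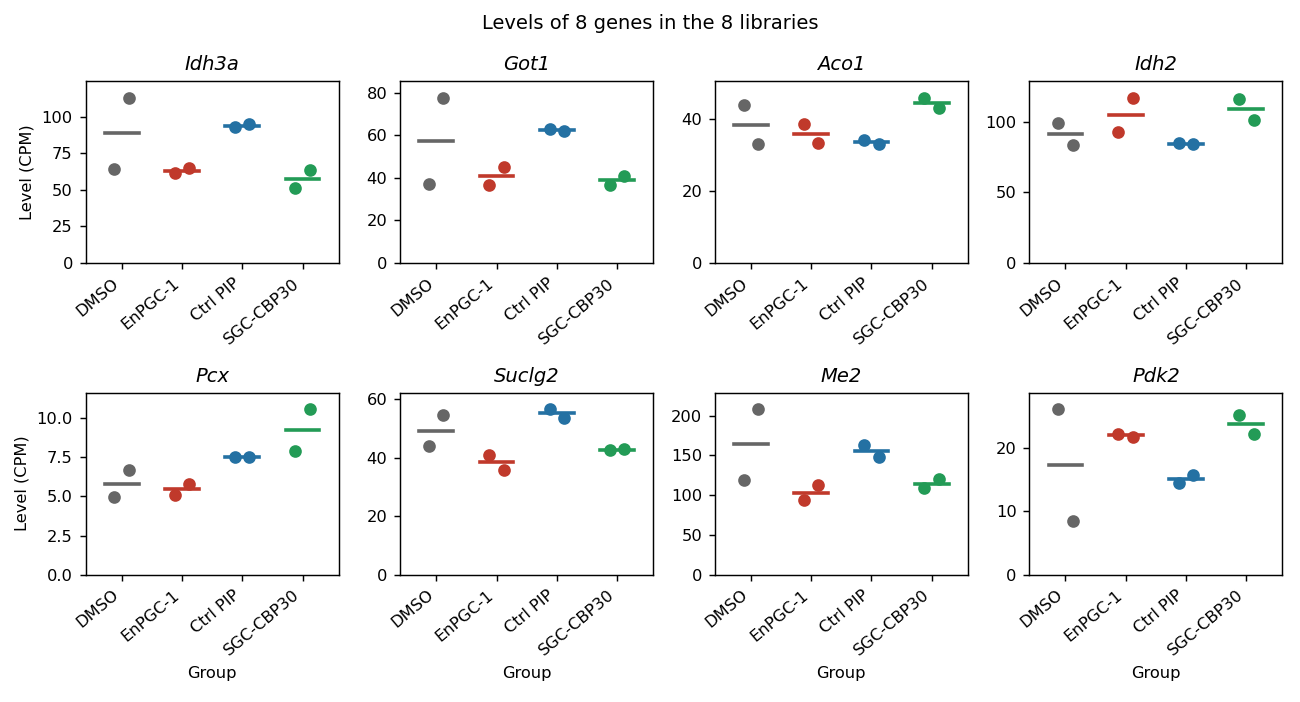
Levels (CPM) of 8 genes in the 8 libraries by group, with points for libraries and a line for the mean of 2. For Idh3a and Got1 the EnPGC-1 and SGC-CBP30 libraries stand below both Ctrl PIP libraries, while the DMSO libraries lie far apart.

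The second span runs from 2-oxoglutarate back to oxaloacetate. Ogdh, the E1 enzyme of the 2-oxoglutarate dehydrogenase complex, was at 239.22 and 182 CPM (DMSO), 231 and 177 (EnPGC-1), 212 and 221 (Ctrl PIP) and 241 and 228 (SGC-CBP30). Dlst, its E2 enzyme, was at 105 and 140.4 CPM (DMSO), 118 and 112 (EnPGC-1), 136 and 139 (Ctrl PIP) and 116 and 112 (SGC-CBP30). Ogdh was lowest in the second libraries of DMSO and EnPGC-1, where most of the 31 genes were higher than in the first. Sucla2, the subunit of succinyl-CoA ligase that makes ATP, was at 50.8 and 95.7 CPM (DMSO), 43.6 and 71.9 (EnPGC-1), 73.0 and 73.3 (Ctrl PIP) and 51.6 and 58.7 (SGC-CBP30). Suclg1, the subunit shared by both forms, was at 66.1 and 121 CPM (DMSO), 53.3 and 77.0 (EnPGC-1), 93.3 and 85.4 (Ctrl PIP) and 59.2 and 68.4 (SGC-CBP30). Suclg2, the subunit that makes GTP, was at 44.0 and 54.6 CPM (DMSO), 41.1 and 35.7 (EnPGC-1), 56.6 and 53.8 (Ctrl PIP) and 42.6 and 42.9 (SGC-CBP30). For Suclg2 both EnPGC-1 libraries stood below all 6 others.

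Fh1, fumarase, was at 52.6 and 112 CPM (DMSO), 47.0 and 64.8 (EnPGC-1), 86.8 and 82.8 (Ctrl PIP) and 56.2 and 65.7 (SGC-CBP30). Mdh1, the cytosolic malate dehydrogenase, was at 144 and 353 CPM (DMSO), 139 and 247 (EnPGC-1), 262 and 227 (Ctrl PIP) and 177 and 199 (SGC-CBP30). Mdh2, the mitochondrial form that closes the cycle, was at 215 and 368 CPM (DMSO), 189 and 234 (EnPGC-1), 305 and 286 (Ctrl PIP) and 209 and 206 (SGC-CBP30). All 3 were highest in replicate 2 of DMSO and lowest in replicate 1 of EnPGC-1. Per kilobase of the longest transcript and averaged over the 8 libraries, Mdh2 had the highest level of the 31 genes, 157 CPM per kilobase, followed by Mdh1 (103), Got2 (96.8), Cs (91.1) and Glud1 (75.5). Pdk1, the highest in plain CPM at 349.95, came to 67.5 CPM per kilobase. At the low end were Idh1 (3.36 CPM per kilobase), Pdp1 (1.88) and Pcx (1.69).

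EnPGC-1 was compared with its vehicle DMSO to ask what the compound did to these genes. No gene of the 31 passed the test, and for 29 of them the EnPGC-1 and DMSO libraries overlapped. The edgeR quasi-likelihood test on all 8 libraries called 0 of 31 (background 0% of all genes), with 0 of 31 at an unadjusted p under 0.05 (background 2.61%), and DESeq2 also called 0 of 31 (background 0.0827%). The log2 fold change was below 0 for 26 of 31 genes, against 49.8% of all genes tested, with a median of -0.17 (0.00 over all genes). All 7 genes of pyruvate entry and all 8 genes from 2-oxoglutarate to oxaloacetate were below 0, and Pdk2 had the highest value, 0.34. Both EnPGC-1 libraries stood below both DMSO libraries for 2 genes, Suclg2 and Me2 (6.45%, background 9.24%), and above them for 0 genes (background 9.83%).

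The 4 genes with the smallest p in this comparison were Me2, Suclg2, Idh3a and Mdh2. Me2 had a log2 fold change of -0.66 (SE 0.29, 95% interval -1.36 to 0.03). Suclg2 had -0.36 (SE 0.19, 95% interval -0.81 to 0.09), Idh3a -0.49 (SE 0.29, 95% interval -1.18 to 0.19), and Mdh2 -0.46 (SE 0.28, 95% interval -1.14 to 0.22). Their adjusted p was 0.998 in each case by edgeR. Over the alternatives that kept 2 libraries in each group, its lowest value was 0.826 for all 4. That fit had the replicate number as a block and offsets for length and GC content. The median depended on single libraries. Without replicate 2 of DMSO it was 0.13, with 20 of 31 genes above 0, and leaving out replicate 1 of EnPGC-1 brought it to -0.017, with 13 above 0. Leaving out replicate 1 of DMSO gave -0.39, and replicate 2 of EnPGC-1 -0.29. Without replicate 2 of DMSO the log2 fold changes were -0.21 for Me2, -0.20 for Suclg2, -0.030 for Idh3a and -0.026 for Mdh2. With offsets for length and GC content, Mdh2 was at -0.24 and 22 of 31 genes were below 0.

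Same-numbered libraries of DMSO and EnPGC-1 deviated together, so the comparison was also made without the first libraries of both and without the second. Each such fit sets 1 library against 1 and takes its spread from the libraries of the other groups, so the lone libraries are assumed to vary like those. With the second libraries alone, edgeR called 4 of 31 genes lower (background 4.22%) and 1 higher (background 2.22%). The 4 lower genes were Me2 (log2 fold change -0.88, adjusted p = 0.0340), Idh3a (-0.80, adjusted p = 0.0491), Got1 (-0.79, adjusted p = 0.0368) and Fh1 (-0.78, adjusted p = 0.0429). The higher gene was Pdk2 (1.35, adjusted p = 0.0266). With the first libraries alone it called 0 of 31 (background 0%).

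Ctrl PIP is named as the control polyamide, so this comparison sets EnPGC-1 against it. The doses are not in the labels and could not be matched. No gene of the 31 passed edgeR's adjusted threshold (0 of 31, background 0%), 1 was lower at an unadjusted p under 0.05 (background 4.48%), and DESeq2 called 0 (background 0.189%). The log2 fold change was below 0 for 25 of 31 genes (45.9% of all genes), with a median of -0.25 (0.05 over all genes). Both EnPGC-1 libraries stood below both Ctrl PIP libraries for 16 genes, 51.6% of the 31 (background 21.7%). They stood above for 2, Idh2 and Pdk2, or 6.45% (background 20.7%).

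The 16 lower genes included 6 of the 8 genes of the span from 2-oxoglutarate to oxaloacetate (Dlst, Sucla2, Suclg1, Suclg2, Fh1 and Mdh2). They also included 4 of the 5 genes grouped under anaplerosis (Pcx, Me2, Got1 and Got2). Suclg2 had the smallest p, with a log2 fold change of -0.52 (SE 0.19, 95% interval -0.97 to -0.07), and an edgeR adjusted p of 0.812 (0.426 to 1 over the alternatives). Got2 had -0.45 (SE 0.22, 95% interval -0.97 to 0.07), Me2 -0.59 (SE 0.29, 95% interval -1.28 to 0.10), and Idh3a -0.57 (SE 0.29, 95% interval -1.26 to 0.12). The median was -0.43 without replicate 2 of EnPGC-1 and -0.14 without replicate 1, where Got2 was at -0.295. With offsets for length and GC content it was -0.19, with 24 of 31 genes below 0. The summed level of 5 B cell markers (Ms4a1, Cd79a, Cd79b, Pax5 and Blk) was 43.3 and 38.9 CPM with EnPGC-1 and 32.3 and 21.7 CPM with Ctrl PIP. That of the 4 NK cell markers was 49.9 and 42.4 CPM with EnPGC-1 and 75.7 and 76.2 CPM with Ctrl PIP, against 68.6 and 81.1 CPM with DMSO. Most of this sum came from Eomes, which CD8 T cells also express. Eomes was at 48.4 and 40.1 CPM with EnPGC-1, 69.9 and 68.5 CPM with Ctrl PIP and 63.7 and 73.1 CPM with DMSO. Klre1 and Klrb1c were also lower in both EnPGC-1 libraries than in both Ctrl PIP libraries. Ncr1 was at 0.534 and 0 CPM with EnPGC-1 and at 0 and 0.251 CPM with Ctrl PIP. The part of these differences in the results for EnPGC-1 was not tested.

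SGC-CBP30 and Ctrl PIP had the closest replicates, as was known from earlier results of these data. A fit of their own 4 libraries gave narrower intervals than the fit of all 8. The narrower intervals and the calls below follow in part from that choice. The trend on transcript length also separated the groups, with rho at 0.54 and 0.48 (SGC-CBP30) and -0.53 and -0.20 (Ctrl PIP). Fits with offsets for it are given below. With the spread of their own 4 libraries, 8 genes were called lower with SGC-CBP30 (25.8% of the 31, background 8.51%). Another 2 were called higher (6.45%, background 7.27%, so no more often than genes at large). The lower calls included the catalytic subunit Idh3a, the aminotransferase Got1 and the carrier Mpc2. The higher calls were the kinase Pdk2 and the aconitase Aco1. With the spread of all 8 libraries, none of the 31 passed (0 of 31, background 0%), with 1 lower at an unadjusted p under 0.05 (background 3.99%) and 0 called by DESeq2 (background 0.133%). The log2 fold change was below 0 for 26 of 31 genes (48.5% of all genes), with a median of -0.25 (0.01 over all genes). The smallest p in that fit belonged to Idh3a, with a log2 fold change of -0.71 (SE 0.29, 95% interval -1.40 to -0.03), followed by Got1 with -0.69 (SE 0.34, 95% interval -1.51 to 0.13), Aco1 with 0.41 (SE 0.21, 95% interval -0.09 to 0.90) and Suclg2 with -0.37 (SE 0.19, 95% interval -0.82 to 0.08). Their edgeR adjusted p was 0.871 in each case, and over the alternatives its lowest value was 0.0180 for Idh3a, 0.0149 for Got1, 0.0481 for Aco1 and 0.0531 for Suclg2, with 1 as the highest for all 4. Both SGC-CBP30 libraries stood below both Ctrl PIP libraries for 19 genes, 61.3% of the 31 (background 30.2%). They stood above for 5, Aco1, Idh2, Ogdh, Pcx and Pdk2, or 16.1% (background 31.5%).

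The fit of the 4 libraries alone had a common coefficient of variation of 0.154, where that of all 8 libraries was 0.415. It gave the 10 calls named above, and DESeq2 on the same libraries called 14 of 31 (45.2%, background 25.4%). Idh3a fell, with a log2 fold change of -0.72 (SE 0.13, 95% interval -1.02 to -0.42, edgeR adjusted p = 0.0180). Got1 fell by a like amount, -0.70 (SE 0.11, 95% interval -0.96 to -0.43, edgeR adjusted p = 0.0149). Mpc2 had -0.55 (SE 0.14, 95% interval -0.87 to -0.22, edgeR adjusted p = 0.0377), and Mdh2 -0.51 (SE 0.11, 95% interval -0.78 to -0.25, edgeR adjusted p = 0.0270). Suclg1, Fh1, Me2 and Sucla2 also fell, with log2 fold changes of -0.49, -0.48, -0.45 and -0.41 and edgeR adjusted p-values of 0.0337, 0.0347, 0.0379 and 0.0482. Pdk2 rose, with 0.64 (SE 0.14, 95% interval 0.32 to 0.97, edgeR adjusted p = 0.0261), and Aco1 rose, with 0.40 (SE 0.11, 95% interval 0.14 to 0.66, edgeR adjusted p = 0.0493).

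Within roles, the lower calls covered 4 of the 8 genes from 2-oxoglutarate to oxaloacetate (Sucla2, Suclg1, Fh1 and Mdh2). They covered 2 of the 5 genes grouped under anaplerosis (Me2 and Got1, not Pcx or Glud1). They also covered 1 of the 7 genes from citrate to 2-oxoglutarate and 1 of the 7 of pyruvate entry. With offsets for length and GC content in these libraries, only Suclg1 of the 4 genes from 2-oxoglutarate to oxaloacetate was still called. Under these offsets Mdh2 was at -0.25, Sucla2 at -0.23 and Fh1 at -0.35 (edgeR adjusted p = 0.107, 0.135 and 0.060). Cs had -0.10 (SE 0.12, 95% interval -0.37 to 0.17, edgeR adjusted p = 0.585), Pdha1 -0.09 (SE 0.12, 95% interval -0.37 to 0.19, edgeR adjusted p = 0.634), and Glud1 -0.02 (SE 0.12, 95% interval -0.29 to 0.25, edgeR adjusted p = 0.924), so the intervals of these 3 genes allow changes of up to about 0.37 log2 units downward. With the offsets Cs was at -0.014, Pdha1 at 0.024 and Glud1 at 0.019, and Mpc1 went from -0.17 to 0.22. Idh2 was higher in both SGC-CBP30 libraries, with 0.36 (SE 0.11, 95% interval 0.10 to 0.63, edgeR adjusted p = 0.0695), and it was at 0.58 with the offsets. Suclg2 was lower in both, with -0.37 (SE 0.11, 95% interval -0.62 to -0.13, edgeR adjusted p = 0.0531).

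**Figure D4:**
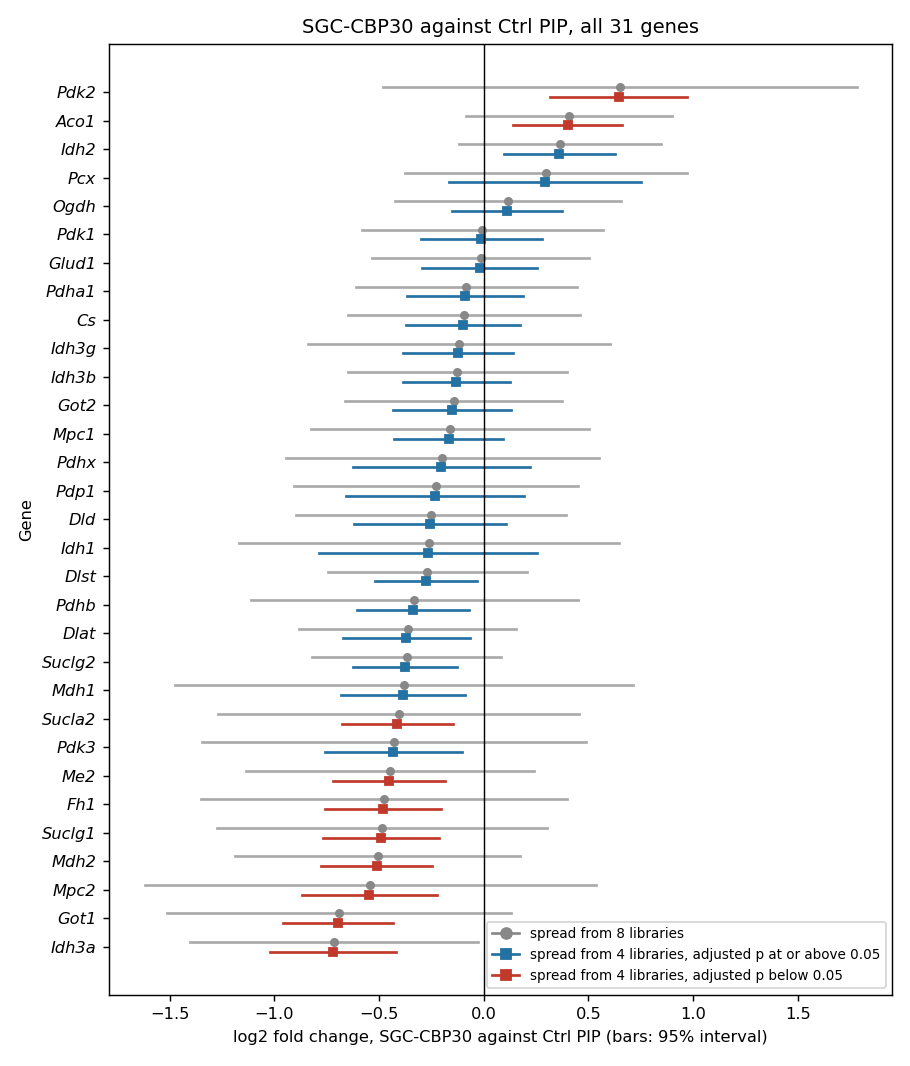
Log2 fold change of each of the 31 genes between SGC-CBP30 and Ctrl PIP with its 95% interval, from the fit with the spread of all 8 libraries (grey) and from the 4 libraries of the comparison (blue, or red where the adjusted p is below 0.05). The points hardly differ between the fits, the intervals of the 4 libraries are narrower, and 10 genes are red.

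These calls depended on the spread and on single libraries. With the replicate number as a block in the 4 libraries, which leaves 1 residual degree of freedom, 0 of 31 were called (background 0.0894%), while the median was -0.26 with and without the block. In fits of 3 libraries the lone library is assumed to vary like the pair. Without replicate 1 of SGC-CBP30 only Got1 was called (3.23%, background 4.41%), and without replicate 1 of Ctrl PIP only Idh3a and Got1 (6.45%, background 8.09%). Without replicate 2 of SGC-CBP30, 8 genes were called (25.8%, background 12.1%), and without replicate 2 of Ctrl PIP, 9 (background 18.2%). The median ran from -0.28 to -0.20 over these 4 fits. With offsets for length and GC content in the 4 libraries, 5 of 31 were called lower (background 6.41%), Idh3a, Suclg1, Mpc2, Me2 and Got1, and 3 higher (background 4.75%), Aco1, Idh2 and Pdk2. Their log2 fold changes under the offsets were -0.58 for Idh3a, -0.50 for Got1 and 0.80 for Pdk2, and the median of the 31 was -0.17. Idh3b, Idh3g, Pdha1, Mpc1 and Glud1, which were below 0 without the offsets, were above 0 with them. The summed level of the 4 NK cell markers was 42.7 and 47.7 CPM with SGC-CBP30 and 75.7 and 76.2 CPM with Ctrl PIP, most of it from Eomes, which CD8 T cells also express, while Ncr1 was at 0 in both SGC-CBP30 libraries and at 0 and 0.251 CPM with Ctrl PIP. The libraries did not overlap for the other NK cell markers either, with Klre1 at 0.81 and 2.35 CPM with SGC-CBP30 and 5.06 and 5.30 CPM with Ctrl PIP, and Klrb1c at 0.258 and 0.336 CPM against 0.76 and 2.20 CPM. The part of this difference in the result was not tested.

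SGC-CBP30 was compared with DMSO to see the bromodomain inhibitor against its vehicle. Here edgeR called 0 of 31 (background 0%), with 0 at an unadjusted p under 0.05 (background 4.39%), and DESeq2 called 0 (background 0.363%). Pcx had the smallest p, with a log2 fold change of 0.67 (SE 0.28, 95% interval -0.01 to 1.34). Idh3a had -0.63 (SE 0.29, 95% interval -1.32 to 0.05), Me2 -0.52 (SE 0.29, 95% interval -1.21 to 0.17), and Mdh2 -0.49 (SE 0.28, 95% interval -1.17 to 0.19). Their edgeR adjusted p was 0.943 in each case. Both SGC-CBP30 libraries stood above both DMSO libraries for 2 genes, Pcx and Idh2 (6.45%, background 16.2%), and below them for 3, Idh3a, Suclg2 and Mdh2 (9.68%, background 14.5%). The median over the 31 was -0.21 (-0.03 over all genes), with 21 of 31 below 0 (52.7% of all genes). It was 0.12 without replicate 2 of DMSO and -0.39 without replicate 1. Without replicate 2 of DMSO, Idh3a was at -0.17, Me2 at -0.062 and Mdh2 at -0.052. With offsets for length and GC content, Mdh2 was at -0.20 and 18 of 31 genes were below 0. The 4 NK cell markers summed to 42.7 and 47.7 CPM with SGC-CBP30 and 68.6 and 81.1 CPM with DMSO. Most of this sum was Eomes, at 41.7 and 45.1 CPM with SGC-CBP30 and 63.7 and 73.1 CPM with DMSO. Klre1 and Klrb1c were also lower in both SGC-CBP30 libraries than in both DMSO libraries. The 5 B cell markers summed to 21.4 and 17.7 CPM with SGC-CBP30 and 40.5 and 34.3 CPM with DMSO. The 7 myeloid markers summed to 11.1 and 10.6 CPM against 18.3 and 14.9 CPM. Among these, Itgax was at 0.70 and 0.93 CPM against 7.11 and 3.97 CPM. The 6 erythroid markers summed to 3.52 and 1.64 CPM against 4.80 and 12.1 CPM. The part of these differences in the result was not tested.

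Ctrl PIP was compared with DMSO as the background of adding a polyamide. In this pair edgeR called 0 of 31 (background 0%), with 0 at an unadjusted p under 0.05 (background 0.597%), and DESeq2 called 0 (background 0.00855%). The log2 fold change was below 0 for 13 of 31 genes (58.4% of all genes), with a median of 0.02 (-0.05 over all genes). Pcx had 0.37 (SE 0.28, 95% interval -0.30 to 1.05), and it was the only gene for which both Ctrl PIP libraries stood above both DMSO libraries (3.23%, background 8.34%). None stood below (background 7.83%). Aco1 had -0.19 (SE 0.21, 95% interval -0.69 to 0.30), Suclg2 0.16 (SE 0.19, 95% interval -0.29 to 0.61), and Dlst 0.16 (SE 0.20, 95% interval -0.31 to 0.64). Their edgeR adjusted p was 1 in each case, and Aco1 and Dlst changed sign without replicate 1 of DMSO, where Pcx was at 0.19 and Suclg2 at 0.032. Without replicate 2 of DMSO all 4 were further from 0, with Pcx at 0.61. The median was 0.39 without replicate 2 of DMSO and -0.14 without replicate 1.

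EnPGC-1 and SGC-CBP30 were set against each other last. Between them edgeR called 0 of 31 (background 0%), with 1 lower at an unadjusted p under 0.05 (background 2.03%), and DESeq2 called 0 (background 0.0802%). That gene was Pcx, at 5.12 and 5.77 CPM with EnPGC-1 and 7.93 and 10.6 CPM with SGC-CBP30, a log2 fold change of -0.76 (SE 0.28, 95% interval -1.44 to -0.09). Aco1 had -0.31 (SE 0.21, 95% interval -0.80 to 0.19), Got2 -0.30 (SE 0.22, 95% interval -0.82 to 0.21), and Cs -0.25 (SE 0.23, 95% interval -0.80 to 0.30). Their edgeR adjusted p was 1 in each case. The log2 fold change was below 0 for 17 of 31 genes (47.1% of all genes). The median over the 31 was -0.04 (0.02 over all genes), 0.11 without replicate 1 of EnPGC-1 and -0.20 without replicate 2. Without replicate 1 of EnPGC-1, Cs was at -0.043 and Got2 at -0.14. Both EnPGC-1 libraries stood below both SGC-CBP30 libraries for 5 genes, Aco1, Suclg2, Pcx, Got2 and Pdk2 (16.1%, background 14.7%), and above them for 1, Idh1 (3.23%, background 13.2%). The 5 B cell markers summed to 43.3 and 38.9 CPM with EnPGC-1 and 21.4 and 17.7 CPM with SGC-CBP30. The part of this difference in the comparison was not tested. For the median gene of the 31, the 95% interval spanned 0.68 log2 units on each side of the estimate. Smaller differences could therefore not be resolved for that gene or for genes with wider intervals. The comparisons share libraries with one another, so their values are not independent.

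Ratios of counts within a library do not depend on how libraries are scaled, and they were taken for pairs of related genes. They can still carry the trend on transcript length where paired genes differ in length, as Mpc1 (961 bases) and Mpc2 (4015 bases) do. No offsets were applied to the ratios, and the part of the trend in them was not tested. The log2 ratio of the mitochondrial Got2 to the cytosolic Got1 was 2.59 and 1.85 (DMSO), 2.28 and 2.32 (EnPGC-1), 2.08 and 2.19 (Ctrl PIP) and 2.68 and 2.68 (SGC-CBP30). Both SGC-CBP30 libraries stood above the other 6. The log2 ratio of the mitochondrial Idh2 to the cytosolic Idh1 was 4.06 and 2.93 (DMSO), 3.72 and 3.596 (EnPGC-1), 3.24 and 3.71 (Ctrl PIP) and 4.05 and 4.12 (SGC-CBP30). Here replicate 1 of DMSO lay between the SGC-CBP30 libraries. The log2 ratio of Mdh2 to Mdh1 was 0.58 and 0.06 (DMSO), 0.44 and -0.07 (EnPGC-1), 0.22 and 0.33 (Ctrl PIP) and 0.24 and 0.05 (SGC-CBP30). It did not separate the groups.

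For the carrier, the log2 ratio of Mpc1 to Mpc2 was 0.51 and 0.08 (DMSO), 0.77 and 0.14 (EnPGC-1), 0.30 and 0.43 (Ctrl PIP) and 0.81 and 0.69 (SGC-CBP30). Both SGC-CBP30 libraries stood above both Ctrl PIP libraries. For the kinases, the log2 ratio of Pdk3 to Pdk2 was 0.60 and 3.34 (DMSO), 0.68 and 1.16 (EnPGC-1), 2.24 and 1.85 (Ctrl PIP) and 0.76 and 1.19 (SGC-CBP30). That of Pdk1 to Pdk2 was 3.52 and 5.51 (DMSO), 3.74 and 4.20 (EnPGC-1), 4.65 and 4.44 (Ctrl PIP) and 3.72 and 4.05 (SGC-CBP30). For both, the EnPGC-1 and SGC-CBP30 libraries stood below both Ctrl PIP libraries and within the span of DMSO. The log2 ratio of Suclg2 to Sucla2 was -0.21 and -0.81 (DMSO), -0.09 and -1.01 (EnPGC-1), -0.37 and -0.45 (Ctrl PIP) and -0.28 and -0.45 (SGC-CBP30), and it did not separate the groups. With 2 libraries against 2 an exact permutation test cannot give a two-sided p under 0.33, so no test was made on these ratios.

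**Figure D5:**
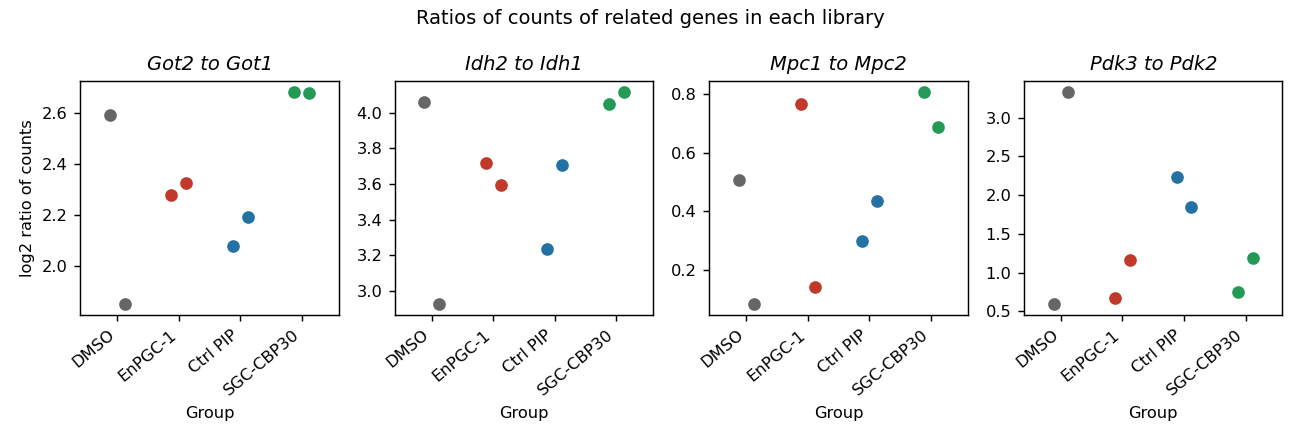
Log2 ratio of the counts of related genes within each library, by group, with 1 point per library. For Got2 to Got1 both SGC-CBP30 libraries lie at 2.68, above the other 6, while the DMSO libraries span 1.85 to 2.59.

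Other genes of the pathway were read from a list of 41, of which 39 were tested. With the spread of all 8 libraries, edgeR called 0 of the 39 in each of the 6 comparisons. At an unadjusted p under 0.05 it had 3 lower for EnPGC-1 against DMSO (7.69%, background 2.61%), 4 lower against Ctrl PIP (10.3%, background 4.48%) and 1 lower against SGC-CBP30 (2.56%, background 2.03%). It had 1 higher for SGC-CBP30 against DMSO (2.56%, background 4.39%) and none in the other comparisons. Me1, the cytosolic malic enzyme, had 0 counts in both EnPGC-1 libraries, 13 and 10 in those of DMSO, 17 and 13 in those of Ctrl PIP and 3 and 10 in those of SGC-CBP30. With EnPGC-1 set to a floor of 3 counts per library, Me1 was 3.94-fold below the mean of DMSO. It was 4.59-fold below the mean of Ctrl PIP and 1.88-fold below that of SGC-CBP30. These means were only 0.253, 0.295 and 0.121 CPM, and replicate 1 of SGC-CBP30, with 3 counts, stood at the floor itself. Gls2, the liver-type glutaminase, was at 0.704 and 1.43 CPM with EnPGC-1 and 2.54 and 4.17 CPM with DMSO, a log2 fold change of -1.65 (SE 0.49, 95% interval -2.81 to -0.49). Slc25a13, a carrier that exchanges aspartate for glutamate, was at 6.27 and 9.58 CPM with EnPGC-1 and 18.6 and 19.8 CPM with Ctrl PIP, a log2 fold change of -1.28 (SE 0.37, 95% interval -2.17 to -0.38). Against SGC-CBP30, Gls2 had -1.07 (SE 0.48, 95% interval -2.22 to 0.08) with EnPGC-1.

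Ldhb, a lactate dehydrogenase subunit, was at 17.1 and 15.0 CPM with SGC-CBP30, 8.75 and 9.21 CPM with DMSO and 10.9 and 11.2 CPM with Ctrl PIP. Its log2 fold change was 0.84 (SE 0.25, 95% interval 0.25 to 1.43) against DMSO and 0.54 (SE 0.25, 95% interval -0.05 to 1.13) against Ctrl PIP. Slc25a1, the citrate carrier, had -0.71 (SE 0.33, 95% interval -1.49 to 0.08) with SGC-CBP30 against DMSO, and Lipt2, an enzyme of lipoate attachment, -1.27 (SE 0.57, 95% interval -2.62 to 0.08) against Ctrl PIP. For Ctrl PIP against DMSO the smallest p belonged to Slc25a10, the dicarboxylate carrier (0.42 (SE 0.27, 95% interval -0.22 to 1.07)), and Nnt, the proton-pumping transhydrogenase (0.27 (SE 0.20, 95% interval -0.20 to 0.74)). In the 4 libraries of SGC-CBP30 and Ctrl PIP, where 37 of the list were tested, edgeR called 3 lower (8.11%, background 8.51%) and 1 higher (2.7%, background 7.27%), so no more often than genes at large. Slc25a1 fell (-0.53, SE 0.11, adjusted p = 0.0252), as did Sdhb, the iron-sulfur subunit of succinate dehydrogenase (-0.515, SE 0.12, adjusted p = 0.0337), and Ldha, the main lactate dehydrogenase of activated T cells (-0.76, SE 0.19, adjusted p = 0.0391). Pdpr, the regulatory subunit of the pyruvate dehydrogenase phosphatase, rose (0.64, SE 0.12, adjusted p = 0.0197). With offsets for length and GC content in these 4 libraries, Pdpr was still called (0.51, adjusted p = 0.0253), Ldhb (0.84, adjusted p = 0.0216), Acss1 (0.40, adjusted p = 0.0477) and D2hgdh (0.43, adjusted p = 0.0387) were called higher as well, and Slc25a1, Sdhb and Ldha were not (adjusted p = 0.0876, 0.225 and 0.0854).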

How the data were processed

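RNA-seq was made from 8 libraries of mouse CD8+ T cells, with column-purified RNA and a strand-marking poly(A) kit, per the labels' protocols. The authors deposited whole-number counts per gene under Entrez IDs, 1 column per library, and regularized log2 values (rlog) of 16442 genes. HISAT2, StringTie, DESeq2 and the build mm10 are named, with no versions or roles, per the submitters' processing notes. No source used here gives the counter, its strand setting or the annotation, so genes that overlap others or have near-identical copies may share counts. Each header name of the deposited log2 table stands 1 column left of its values. There were 0 columns of other samples.

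Counts were tested with edgeR 4.0.16 (TMM, filterByExpr by group, robust glmQLFit and glmQLFTest, R 4.3.3) on all 8 libraries with group means, 4 residual degrees of freedom and two-sided tests. P-values were adjusted by the Benjamini-Hochberg method over 16750 genes at 0.05. CPM used TMM library sizes, and log2 CPM a prior count of 2. Intervals are 95% and cover the spread between libraries. Symbols came from RefSeq (GRCm38.p6, 99.8% of IDs), transcript length and GC content from GENCODE mouse release 21 (longest transcript, 92.2% of genes tested, all 31 members). Alternatives were DESeq2 1.42.0, its size factors, no filter, a block on the replicate number, a fit of just the 4 libraries compared, limma 3.58.1 on the rlog values, offsets for length and GC content (mgcv 1.9.3), each library left out, and the same replicate number left out of DMSO and of EnPGC-1 together. The offsets in the 4 libraries, the further settings of the 4-library fit of SGC-CBP30 against Ctrl PIP and the exchanged block were added after seeing the data. Scripts were tested on simulated data.

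The members and lists were chosen with earlier results of these data known. Levels were given for all 31 members. Fold changes were given for members called and, in each comparison, for the 4 members and the 2 other pathway genes with the smallest p. Values of other members in the 4-library fit, and of Got1, Fh1 and Pdk2 in the fit of the second libraries, were chosen after they were seen. One listed marker gene is not reported here.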

Additional observations from a re-analysis of the deposited data

How the results depend on the processing

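Of the 31 genes, 0 were called in all 6 comparisons by edgeR on the 8 libraries, and this held under DESeq2, its size factors, no filter, limma on the rlog values, the offsets and each library left out. Over all genes, which edgeR also called at 0, DESeq2 called 19 for EnPGC-1 against DMSO, 2 for Ctrl PIP against DMSO, 63 for SGC-CBP30 against DMSO, 36 for EnPGC-1 against Ctrl PIP, 16 for EnPGC-1 against SGC-CBP30 and 31 for SGC-CBP30 against Ctrl PIP. With replicate 1 of both DMSO and EnPGC-1 left out, the edgeR test called 1095 genes and 5 of the 31. In the 4 libraries of SGC-CBP30 and Ctrl PIP it called 2470 genes and 10 of the 31, and with the offsets, added after seeing the data, 1624 and 8, of which 7 were among the 10. There the spread came from fewer and closer libraries, and DESeq2 called 3180 genes and 14 of the 31, all 10 among them. The median of the 31 for SGC-CBP30 against Ctrl PIP, -0.25, was -0.12 on the rlog values, -0.17 with the offsets, -0.17 with them in the 4 libraries and -0.18 with the replicate block and the offsets. Leaving out 1 library, the medians ran from -0.39 to 0.13 for EnPGC-1 against DMSO, -0.14 to 0.39 for Ctrl PIP against DMSO, -0.39 to 0.12 for SGC-CBP30 against DMSO, -0.43 to -0.14 for EnPGC-1 against Ctrl PIP, -0.20 to 0.11 for EnPGC-1 against SGC-CBP30 and -0.28 to -0.20 for SGC-CBP30 against Ctrl PIP. For Ctrl PIP against DMSO without replicate 1 of DMSO, Aco1 turned to 0.0429 and Dlst to -0.0156, and the cause was not tested.

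Groups share replicate numbers, but the labels do not say that a number marks a shared mouse or day. Deviations of same-numbered libraries correlated at 0.666 between DMSO and EnPGC-1, 0.227 and 0.231 between each of these and SGC-CBP30, and -0.252, -0.226 and -0.039 between Ctrl PIP and DMSO, EnPGC-1 and SGC-CBP30. The replicate block in the 8 libraries called 0 of the 31 in every comparison, with medians of -0.14 for EnPGC-1 against DMSO, -0.31 against Ctrl PIP and -0.27 for SGC-CBP30 against Ctrl PIP, and it called 0 genes over all. With the numbers of Ctrl PIP exchanged, an alternative added after seeing the data, it also called 0. In the 4 libraries of SGC-CBP30 and Ctrl PIP the block ended all 10 calls and left the median at -0.26.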
